A study of Mus musculus with 16 samples.

Results

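Collagens, elastic fibres, adhesive glycoproteins and proteoglycans form the extracellular matrix, which embryonic fibroblasts secrete and remodel. Collagen chains are folded with dedicated chaperones, assembled into fibrils or networks outside the cell and cross-linked by lysyl oxidases, while metalloproteases and their inhibitors set the turnover. A mesenchymal matrix programme is a known feature of fibroblasts, whereas pluripotent colonies are epithelial-like and rest on a basement membrane rich in laminin and type IV collagen. Accessible chromatin at 44 genes of this matrix was followed through the chemical conversion of mouse fibroblasts to induced pluripotent stem cells (iPSC). The 44 genes form a named list that was chosen with earlier results of these data known. All 44 were found among the 21887 protein-coding genes of the RefSeq table for GRCm38.p6. Another 64 matrix genes, listed separately, are given as counts.

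Chromatin accessibility had been measured by ATAC-seq, in which the transposase Tn5 cuts and tags open DNA, in 16 samples at 8 stages with 2 samples each. Day 0 was untreated mouse embryonic fibroblasts (MEF) in serum medium, from 129XOG2 embryos of embryonic day E13.5, and days 2, 4, 6, 8, 10 and 12 were labelled reprogramming intermediates, kept in a reprogramming medium whose compounds the labels do not list. The last stage was established iPSC, grown on feeder cells in medium with LIF, the GSK3 inhibitor CHIR99021 and the MEK inhibitor PD0325901. All stages share the same embryonic source, and the labels do not say whether the 2 samples of a stage came from separate embryos or cultures. OG2 mice carry a fluorescent reporter driven by Pou5f1 sequences.

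The authors deposited 1 peak list per stage, so there was no spread between replicates, no test between stages was possible and no p-value is given. List length ran from 31915 peaks at day 12 to 83022 at day 2. Depth was read from the background pileup, the lowest local background that the deposited fold and p-value imply, which in stage order, from day 0 to iPSC, was 1.96, 3.08, 1.23, 2.12, 0.682, 0.968, 0.248 and 1.9. Day 0 and iPSC were thus close in depth, while a missing peak at days 8 to 12 can be a matter of depth. Counts are therefore also given after thinning, that is after scaling each peak's pileup and background down to the background pileup of day 8 and dropping peaks that no longer reached the lowest −log10 p of that list. Day 12 is shallower than that and was left as deposited. Of 8 fibroblast marker genes 7 had a covered end at day 0 and 6 in iPSC, and of 8 pluripotency marker genes 2 had one at day 0 and 7 in iPSC. The ends of 4 of 4 spermatid genes were covered at day 0 and of 0 of 4 in each other list; the part that other cells in the day 0 culture, or feeder cells in the iPSC culture, had in the matrix gene counts was not tested. In cultures of mixed cells, fewer cells with an open site and less open chromatin per cell cannot be told apart.

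A gene end was called covered when a peak lay within 1 kb of it. The gene table gives no strand, so both ends of every gene were used first, and the annotated start was used for the 29 of the 44 genes that have a promoter entry in RefSeq. A set of 6 promoters that stand for the patterns found are shown, chosen after the coverage was known. Each line gives the 250 bases before the annotated start in GRCm38.p6, 5′ to 3′ on the gene's strand, from RefSeq. The start of Col6a1 and of Sparc was covered at days 0 to 6 alone, that of Col3a1 at days 0, 2 and 6, that of Tgfbi at days 0 to 6 and again in iPSC, that of Thbs2 in all 8 lists and that of Nid1 in none. Capitals mark matches, on either strand, to the motifs described after the lines.
Col6a1 promoter, chr10:76726045-76726294, minus strand: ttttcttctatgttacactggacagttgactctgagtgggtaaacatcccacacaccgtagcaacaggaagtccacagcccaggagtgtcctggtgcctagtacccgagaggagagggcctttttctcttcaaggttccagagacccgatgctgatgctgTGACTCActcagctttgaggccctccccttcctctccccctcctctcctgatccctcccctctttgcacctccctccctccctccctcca
Sparc promoter, chr11:55420081-55420330, minus strand: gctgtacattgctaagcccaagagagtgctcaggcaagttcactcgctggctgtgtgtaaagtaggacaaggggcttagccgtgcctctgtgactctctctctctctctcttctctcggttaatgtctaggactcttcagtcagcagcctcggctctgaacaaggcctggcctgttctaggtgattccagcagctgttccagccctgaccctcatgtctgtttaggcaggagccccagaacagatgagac
Col3a1 promoter, chr1:45311288-45311537, plus strand: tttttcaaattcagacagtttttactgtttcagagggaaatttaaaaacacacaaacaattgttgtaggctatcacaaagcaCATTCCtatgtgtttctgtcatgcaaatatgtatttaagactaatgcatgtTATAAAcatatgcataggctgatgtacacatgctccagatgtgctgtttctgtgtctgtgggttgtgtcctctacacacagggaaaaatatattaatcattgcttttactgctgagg
Tgfbi promoter, chr13:56609336-56609585, plus strand: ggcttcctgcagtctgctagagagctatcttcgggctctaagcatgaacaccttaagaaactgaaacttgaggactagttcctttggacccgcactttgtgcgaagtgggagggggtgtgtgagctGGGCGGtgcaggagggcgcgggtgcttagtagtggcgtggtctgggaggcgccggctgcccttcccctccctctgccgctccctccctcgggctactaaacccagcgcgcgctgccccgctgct
Thbs2 promoter, chr17:14694263-14694512, minus strand: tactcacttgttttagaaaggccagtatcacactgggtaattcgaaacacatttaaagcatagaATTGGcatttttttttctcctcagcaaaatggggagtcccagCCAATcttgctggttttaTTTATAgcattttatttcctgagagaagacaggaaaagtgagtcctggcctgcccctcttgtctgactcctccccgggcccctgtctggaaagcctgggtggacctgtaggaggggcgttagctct
Nid1 promoter, chr13:13437352-13437601, plus strand: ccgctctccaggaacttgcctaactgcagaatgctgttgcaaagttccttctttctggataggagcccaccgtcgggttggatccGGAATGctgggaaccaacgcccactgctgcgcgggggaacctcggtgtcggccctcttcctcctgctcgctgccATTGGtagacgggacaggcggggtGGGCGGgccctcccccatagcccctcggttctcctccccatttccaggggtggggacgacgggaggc

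A set of 7 motifs was searched on both strands, each on its own, and the 29 genes have 34 promoter entries. Entries of the same gene can overlap, as at Tnc, where the same GGGCGG and TATAAA are counted in each entry. The GC-box core GGGCGG was in 23 of 34 matrix promoters (67.6%) and in 42.6% of 21263 promoters of protein-coding genes. The matrix promoters were also richer in G and C, with a median of 61.4% beside 55.6%. The TATA-box core TATAAA was in 5 of 34 (14.7% beside 11.6%), at Col3a1, Postn, Thbs2 and Tnc, and the CCAAT box in 12 of 34 (35.3% beside 35.4%). The AP-1 core TGANTCA was in 1 of 34 (2.94% beside 6.13%), the Col6a1 promoter printed above. TGTGGT, the core bound by RUNX factors, was in 2 of 34 (5.88% beside 12.4%), GGAATG, the core bound by TEAD factors, in 4 of 34 (11.8% beside 11.7%), and the CArG box of SRF in 0 of 34 (1.39% of all promoters). None of these motifs occurs in the Sparc window. A match describes the sequence only and is not evidence of binding. Promoters were also grouped by the number of lists that covered any annotated start of their gene. The CpG observed over expected ratio had a median of 0.44 (0.22 to 0.82) for 13 promoters of genes covered in 6 or more lists. It was 0.53 (0 to 0.9) for 21 promoters of genes covered in 5 or fewer, and these ranges overlap.

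Of the 44 matrix genes 40 had at least 1 covered end at day 0 and 31 in iPSC, and the counts of the 6 intermediate lists from day 2 to day 12 were 37, 29, 31, 22, 22 and 12. Among all protein-coding genes the share with a covered end was 55% at day 0 and 58.6% in iPSC, with 62.2%, 51.6%, 54.5%, 55.2%, 56.4% and 44.3% in the lists between. The matrix genes thus stood at 90.9% in fibroblasts (exact 95% interval 78.3 to 97.5, counting error only), at 50% (34.6 to 65.4) on days 8 and 10, at 27.3% (15.0 to 42.8) on day 12 and at 70.5% (54.8 to 83.2) in iPSC. After thinning the counts were 35, 35, 27, 24, 22, 21, 12 and 28 in the same order, beside 50.6%, 56.1%, 49.7%, 47.9%, 55.2%, 56.1%, 44.3% and 54% of all genes. The matrix genes' share was above that of all genes in the lists of days 0 to 6 and iPSC and below it at days 8, 10 and 12, as deposited and after thinning. With each list cut to its 31865 best-scored peaks, it was 75.0% beside 46.9% in fibroblasts, but 43.2% beside 44.6% on day 2 and 50% beside 51.0% in iPSC. The excess at day 2 and in iPSC was thus not seen among the best-scored peaks.

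**Figure D1:**
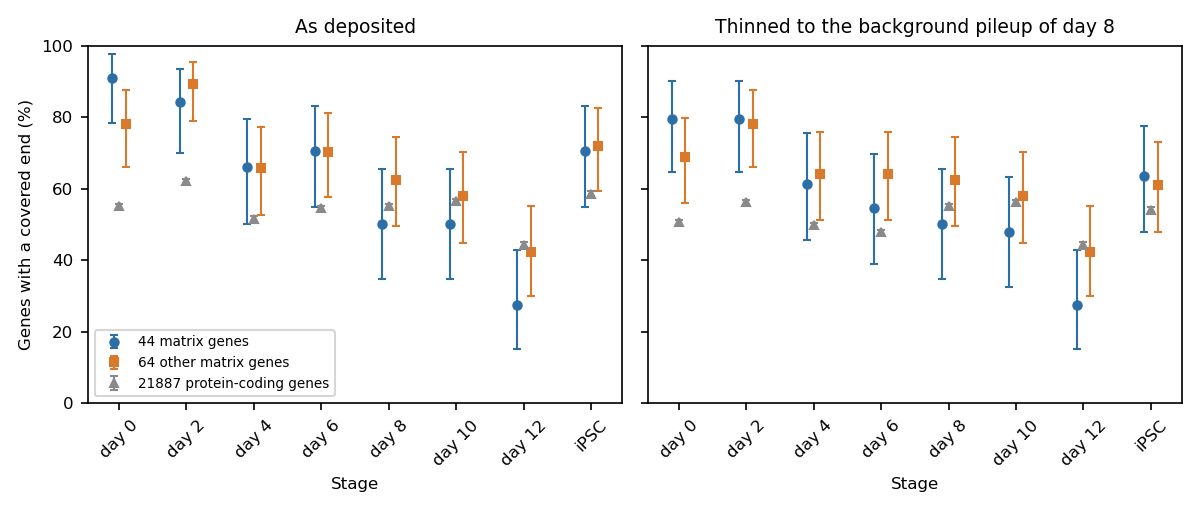
Share of genes with a peak within 1 kb of either end (y axis, percent) by stage (x axis), as deposited (left) and thinned to the background pileup of day 8 (right), for the 44 matrix genes, 64 other matrix genes and 21887 protein-coding genes, with exact 95% intervals that cover counting error only. The matrix genes stand at 90.9% at day 0, 27.3% at day 12 and 70.5% in iPSC as deposited, while all genes stay between 44.3% and 62.2%.

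At the annotated start alone, 26 of 29 matrix genes were covered at day 0 and 19 in iPSC, with 27, 20, 23, 14, 13 and 7 in the intermediate lists in order of day. Of 17492 genes with a known start the shares were 56% at day 0, then 62.3%, 53.6%, 55.3%, 56.8%, 57.8% and 46.3%, and 59.2% in iPSC. Here day 2 had the highest count, and day 12 again had the lowest. The start was covered in every list for 5 of 29 (17.2%; 39.6% of all genes). It was covered at day 0 but lacked a peak in iPSC for 8 of 29 (27.6%; 4.23%), and the reverse held for Mmp14 alone (3.45%; 7.45%). The day 0 peak nearest to the Mmp14 start lay 1.18 kb downstream, just outside the window. With thinning the first pattern held for 9 of 29 (31.0%; 4.76%) and the reverse for Tgfbi alone (3.45%; 7.93%). Between days 6 and 8, 11 of 29 starts were covered in the earlier list only (37.9%; 3.76%) and 2 in the later only (6.9%; 5.33%). After thinning these counts were 6 (20.7%; 2.12%) and 3 (10.3%; 9.75%). At the start in iPSC, thinning left 15 of 29 covered, 51.7% beside 55.3% of all genes, so that the matrix share was then the lower one.

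The matrix genes sorted into a few patterns over the 8 lists. An end was covered in every list for 9 of 44 (20.5%; 36.9% of all genes): Col1a1, Col11a1, Nid2, Fbln5, Emilin1, Serpinh1, Fn1, Thbs2 and Timp3. No list covered an end of Nid1 and Loxl2 (4.55% of the matrix genes; 29.7% of all genes). An end was covered at day 0 and not in iPSC for 10 genes (22.7%; 5.02% of all genes), which were Col3a1, Col6a1, Col6a2, Eln, Fbln2, Loxl1, Postn, Sparc, Lum and Bgn. The reverse held for Col12a1 alone (2.27%; 8.67% of all genes). After thinning the first of these counts was again 10, without Eln and Lum and with Lamb1 and Timp3, and the reverse count was 3, with Fbn2 and Tgfbi added.

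The step from day 6 to day 8 separated 12 genes whose end was covered at day 6 and not at day 8 (27.3%; 5.27% of all genes) from 3 with the reverse, Lox, Vcan and Timp2 (6.82%; 5.95% of all genes). Day 6 was the deeper list, with 3.04% of all genes in the first pattern after thinning. Then 6 matrix genes (13.6%) still had it: Col6a1, Col6a2, Col6a3, Mfap5, Tnc and Mmp14. The reverse, with Timp3 added, held for 4 (9.09%; 10.3% of all genes), so at matched depth 12 against 3 became 6 against 4. A further pattern was a covered end in iPSC with none at days 8, 10 and 12, found for 7 genes (15.9%; 4.81% of all genes), namely Col4a1, Lama4, Col12a1, Fbn2, Mfap5, Tnc and Tgfbi. After thinning it held for these 7 and Mmp14 (18.2%; 3.39% of all genes).

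**Figure D2:**
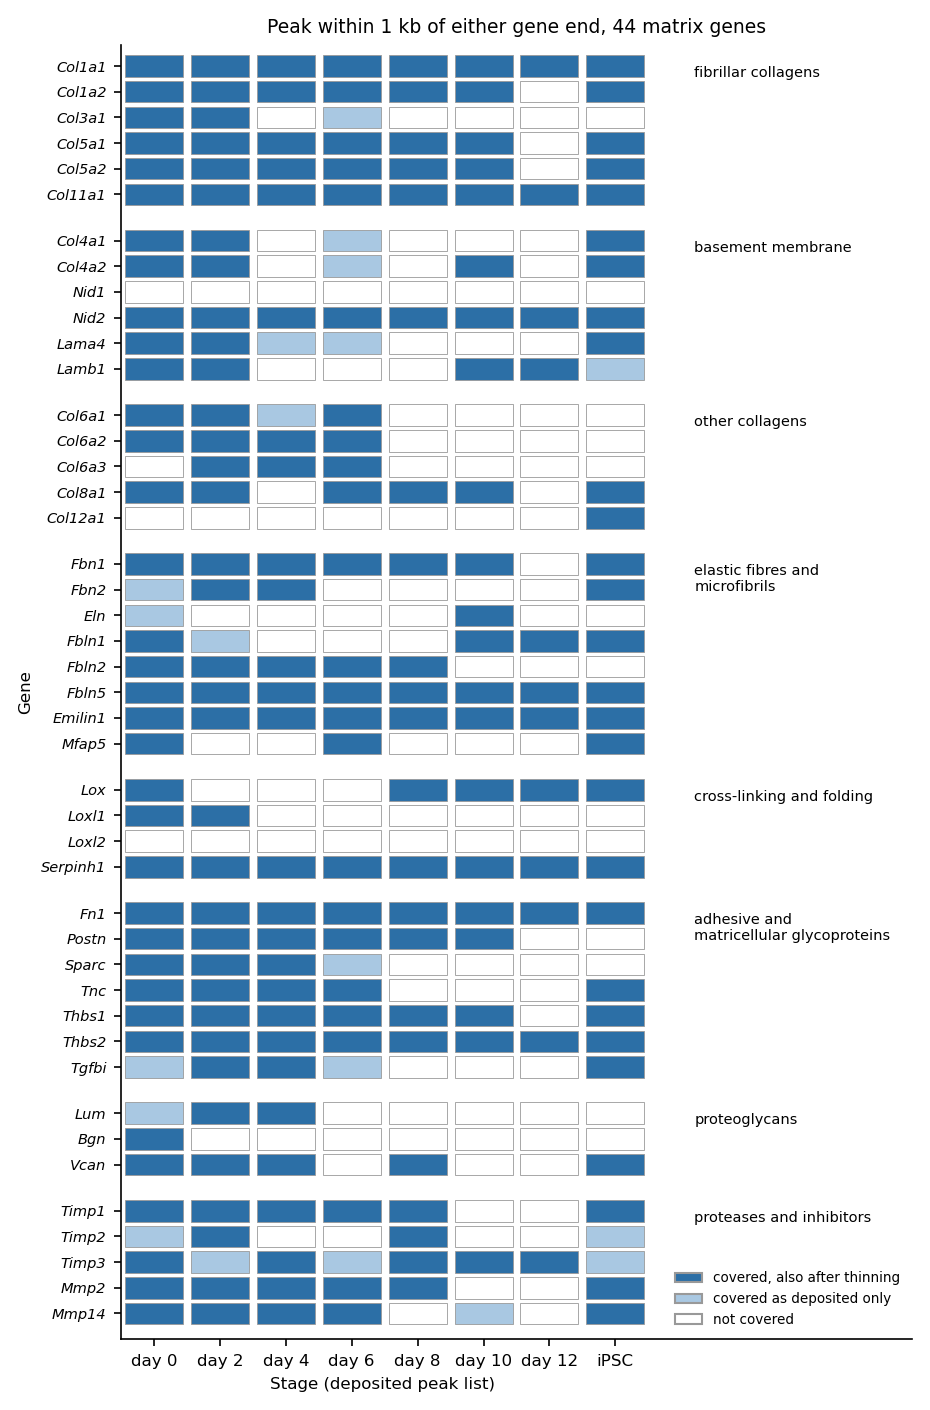
Coverage of either gene end within 1 kb for each of the 44 matrix genes (rows, grouped by role) in each of the 8 deposited lists (columns). Dark cells were covered as deposited and after thinning to the background pileup of day 8, pale cells as deposited only and white cells not; 9 genes are covered in all 8 lists, and Nid1 and Loxl2 in none.

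The fibrillar collagens, which form the tensile fibrils of connective tissue, had a covered end in 6 of 6 genes at days 0, 2 and 6, in 5 genes in iPSC and on days 4, 8 and 10, and in 2 genes on day 12. Col1a1 (chromosome 11, 94936224 to 94953042) encodes the main chain of type I collagen. The recovered summit pileup at its covered end was 45 in fibroblasts, then 76, 24, 55, 30, 33 and 8 over the intermediates in order of day, and 20 in iPSC. In the authors' deposited table the fold over local background of that peak was 2.95 at day 0 and 9.97 at day 8, each to be read within its own list. The end was therefore marked open in every list, while the number of peaks within 20 kb of the gene was 8, 4, 2, 3, 5, 5, 1 and 2 from day 0 to iPSC. Col1a2 (chromosome 6, 4505618 to 4541543), the partner chain of type I collagen, had pileups at its start of 36, 50, 22, 27, 11 and 9 at days 0 to 10, none at day 12 and 15 in iPSC. The nearest peak to that start at day 12 lay 40.02 kb upstream.

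Col3a1 (chromosome 1, 45311538 to 45349706), the type III collagen gene of skin and vessels, was covered at its start at days 0, 2 and 6, with pileups of 29, 47 and 18. The day 6 peak did not remain after thinning. In the other lists the nearest peak lay 23.38 kb upstream at day 4, 2.35 kb downstream at day 8, 190.87 kb downstream at day 10, 117.95 kb upstream at day 12 and 2.36 kb downstream in iPSC. Day 8 and iPSC thus shared a position inside the gene that the 1 kb window does not take in. The genes of type V collagen, Col5a1 and Col5a2, which starts fibrils and limits their width, were covered in 7 lists each, all but day 12. Col11a1, a cartilage fibril gene, was covered in all 8 lists and had 0 MEF-only and 0 iPSC-only regions nearby.

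In the basement membrane, the sheet under epithelia, type IV collagen forms the network, laminins bind cells and nidogens join them. Col4a1 and Col4a2, the type IV collagen genes on chromosome 8, run in opposite directions from starts at 11312889 and 11312805, so a single peak covers both. Its pileup was 29 in fibroblasts, 45 on day 2, 16 on day 6 and 22 in iPSC, with no peak there on days 4, 8, 10 and 12. The day 6 peak did not remain after thinning. At days 8, 10 and 12 the nearest peaks to the Col4a2 start were 3.33 kb upstream, 2.58 kb downstream and 4.64 kb downstream. The shared start was thus covered at both end points, and the late lists placed their nearest peaks beside it.

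The laminin chain genes behaved differently from each other. Lama4 was covered at days 0 to 6 and in iPSC with pileups of 23, 33, 9, 14 and 37, and was not covered at days 8 to 12. Lamb1 had a covered end on days 0, 2, 10 and 12, and also in iPSC, with pileups of 26, 37, 30, 10 and 15. Nid2 was covered in all 8 lists and Nid1 in none. Around Nid1 (chromosome 13, 13437602 to 13512275) there were 3, 8, 5, 6, 3, 2, 1 and 5 peaks from day 0 to iPSC, the nearest to its start being 22.92 kb downstream, in iPSC. Open chromatin at Nid1 therefore lay inside and beyond the gene and not at its start.

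Among the other collagens, the 3 chains of type VI collagen, which forms beaded filaments around cells, shared a pattern. Col6a1 (chromosome 10, 76708792 to 76726044) had start pileups of 32, 47, 11 and 35 at days 0, 2, 4 and 6. Col6a2 (chromosome 10, 76595756 to 76623630) had 27, 62, 20 and 23 at the same days. Col6a3 (chromosome 1, 90766860 to 90844001) had no peak at its start at day 0 and pileups of 38, 17 and 21 at days 2, 4 and 6. None of these starts was covered at day 8, 10 or 12 or in iPSC.

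The gap was wide for type VI collagen. The peak nearest to the Col6a1 start was 7.22 kb away at day 8, 7.23 kb at day 10, 154.67 kb at day 12 and 44.81 kb in iPSC. For Col6a2 these distances were 45.38, 28.86, 91.87 and 91.83 kb, and for Col6a3 they were 5.38, 84.29, 107.85 and 52.77 kb. After thinning the Col6a1 peak of day 4 was lost and its peaks of days 0, 2 and 6 stayed. All 3 genes had 3 MEF-only and 0 iPSC-only regions within 20 kb, and no peak at all there at day 12 or in iPSC.

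Col8a1, a network-forming collagen of vessels and cornea, had peaks at its start in 6 lists and 10, 12, 3, 8, 3, 3, 1 and 3 peaks within 20 kb from day 0 to iPSC. Its 7 MEF-only regions met 0 iPSC-only regions, and 0 of the 7 were covered at days 4, 8, 10 and 12. Col12a1, whose product coats collagen fibrils, was the 1 gene with an end covered in iPSC and not at day 0, with a pileup of 13. It nevertheless had 9, 12, 5, 12, 3, 3, 2 and 4 peaks within 20 kb and 6 MEF-only against 1 iPSC-only region. By the 1 kb window its end was thus covered in iPSC alone, while more of the regions around it were specific to day 0. A shared region inside the gene (79716668 to 79719921) stopped just short of the window at the other end (79721141). That region was covered at days 0 to 6, at day 12 and in iPSC.

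In the elastic fibres, elastin is laid on microfibrils of fibrillin with fibulins and emilin. Fbn1 (chromosome 2, 125300594 to 125506485), the main fibrillin gene, was covered at its start in all lists but day 12, with pileups of 50, 80, 23, 25, 8, 10 and 33. It had 15, 22, 7, 18, 4, 9, 1 and 3 peaks within 20 kb. Fbn2, the fibrillin gene of early development, had a covered end on days 0, 2 and 4, and in iPSC as well, with 12, 20, 8, 11, 2, 0, 2 and 5 peaks within 20 kb. Around both genes the lists of days 0, 2 and 6 held the most peaks.

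Eln, the elastin gene, had an end covered at days 0 and 10 only, with pileups of 13 and 7 at 1 end and a pileup of 10 at the other end at day 10. Its peaks within 20 kb numbered 3, 3, 3, 3, 2, 4, 1 and 2, nearly level over the lists. Fbln2, a fibulin gene, was covered at its start at days 0 to 8 with pileups of 35, 50, 19, 23 and 25, and not at day 10, day 12 or in iPSC. It had 9, 10, 5, 6, 9, 5, 1 and 2 peaks within 20 kb, so that day 8 equalled day 0 in spite of its lower depth. Mfap5, a microfibril glycoprotein gene, had a covered end on days 0 and 6 plus iPSC, with pileups of 56, 33 and 16, and 4, 3, 3, 5, 1, 3, 0 and 3 peaks.

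Emilin1, an elastic fibre glycoprotein gene, shows what the choice of end does. Its far end lies within 2 kb of an end of Khk, a fructose kinase gene, and was covered in all 8 lists, whereas its start was covered at days 0 to 6 only, with pileups of 60, 93, 33 and 44. Fbln5 kept a covered start in all 8 lists, and Fbln1 had one on days 0, 2, 10 and 12 plus iPSC.

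The start pattern of days 0 to 6 and no later list was found for Col6a1, Col6a2, Emilin1 and Sparc, 4 of 29 genes (13.8%), and for 0.366% of the 17492 genes with a known start. After thinning it remained at Col6a2 and Emilin1 (6.9% beside 0.223%). With a window of 2.5 kb it held for Col6a1, Col6a2 and Emilin1. Sparc left it, because its nearest peaks from day 8 on were 1.67, 1.63 and 1.28 kb away, and 1.67 kb away in iPSC. Another start pattern, covered on days 0 and 6 plus iPSC but on none of days 8, 10 and 12, was found for Col4a1, Col4a2, Tnc and Tgfbi (13.8% beside 0.509%), with Col4a1 and Col4a2 sharing 1 peak. After thinning Tnc alone had it (3.45% beside 0.166%).

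For cross-linking and folding, Lox and its relatives oxidise lysines of collagen and elastin, and Serpinh1 encodes the collagen chaperone of the endoplasmic reticulum. Lox had a covered end in fibroblasts, on days 8, 10 and 12, and in iPSC, with a pileup of 73 in fibroblasts and of 8, 9, 5 and 28 in the later lists, and not at days 2, 4 and 6, which were the deeper intermediate lists. Loxl1 (chromosome 9, 58287723 to 58313212) was covered at days 0 and 2 with pileups of 42 and 39, and had 5, 5, 1, 3, 2, 1, 0 and 2 peaks within 20 kb. Loxl2 had no covered end and 2, 3, 1, 2, 2, 1, 1 and 3 peaks within 20 kb. Serpinh1 was covered at its start in every list, with pileups of 51, 55, 23, 33, 26, 46, 15 and 25. The chaperone gene and the oxidase genes thus did not share a pattern.

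The adhesive and matricellular glycoproteins, which bind cells to fibrils or tune that contact, had a covered end in 7 of 7 genes at days 0 to 6. The count was 4 on days 8 and 10, 2 on day 12 and 5 in iPSC. Fn1 (chromosome 1, 71585473 to 71653280), the fibronectin gene, had pileups at its covered end of 57, 69, 35, 31, 23, 22, 6 and 83 from day 0 to iPSC. The iPSC pileup was the highest of the 8, at a background pileup close to that of day 0. The deposited fold over local background was nearly the same at both, 5.58 at day 0 and 5.85 in iPSC, and was highest at day 4, at 8.29. Fn1 had 5, 5, 2, 2, 4, 3, 3 and 5 peaks within 20 kb and 3 regions of each end-point class.

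Postn (chromosome 3, 54359267 to 54391041), the periostin gene, was covered at its start at days 0 to 10, with pileups of 22, 63, 12, 21, 15 and 9. At day 12 and in iPSC the nearest peaks were 133.63 and 208.41 kb downstream, and the gene had 3, 4, 1, 4, 2, 1, 0 and 0 peaks within 20 kb. Sparc (chromosome 11, 55394159 to 55420080), which encodes a collagen-binding glycoprotein, had start pileups of 46, 87, 26 and 22 at days 0 to 6. With 7, 8, 5, 6, 6, 5, 4 and 5 peaks within 20 kb, it kept open sites nearby in every list. The surroundings of Postn were without peaks in the last lists and those of Sparc were not, although both lacked a covered end in iPSC.

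Tnc, the tenascin-C gene, had start pileups of 34, 39, 14 and 34 at days 0 to 6 and of 25 in iPSC. At days 8, 10 and 12 its nearest peaks were 11.37, 29.35 and 124.92 kb away. Tgfbi, a gene induced by TGF-beta, had start pileups of 18, 56, 15 and 14 at days 0 to 6 and of 18 in iPSC, with the nearest peaks 7.81, 48.45 and 59.42 kb away in between. Thbs2 (chromosome 17, 14665500 to 14694262), a thrombospondin gene, had a peak on its start in all 8 lists, with pileups of 54, 69, 18, 66, 16, 18, 11 and 78. Thbs1, its relative, was covered in all lists but day 12.

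Of the proteoglycans, Lum and Bgn encode small leucine-rich proteins that bind collagen fibrils, and Vcan a large one that swells the matrix. Lum (chromosome 10, 97565501 to 97572703) was covered at days 0, 2 and 4 with pileups of 11, 42 and 10. Its peaks within 20 kb numbered 3, 4, 2 and 1 at days 0 to 6 and 0 in each later list. Bgn (chromosome X, 73483601 to 73495936) was covered at day 0 only, at its start with a pileup of 17 and at its far end with 25, and the start peak did not remain after thinning. It had 6, 6, 1 and 2 peaks within 20 kb at days 0 to 6 and 0 in each later list. Lum and Bgn were thus the 2 genes without a peak within 20 kb from day 8 on.

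Vcan (chromosome 13, 89655309 to 89743027) had a peak near its start on days 0, 2, 4 and 8, and also in iPSC, with pileups of 42, 57, 30, 9 and 87. It had 2, 6, 3, 4, 3, 2, 3 and 4 peaks within 20 kb, with 0 MEF-only and 3 iPSC-only regions. In contrast to the small proteoglycans it had its highest pileup in iPSC. The deposited fold over local background there was 3.31 at day 0, 4.05 at day 4 and 4.16 in iPSC.

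The proteases and inhibitors, which set how fast matrix is removed, had 15 MEF-only and 10 iPSC-only regions over 5 genes. Timp1 had an end covered at days 0 to 8 and in iPSC and 2, 3, 1, 1, 1, 0, 0 and 4 peaks within 20 kb. Timp2, whose product both blocks and helps activate gelatinase A, had its start covered on days 0, 2 and 8 plus iPSC, and 10, 15, 4, 11, 5, 1, 3 and 2 peaks. Mmp14, the membrane-bound protease that activates gelatinase A, had 5, 7, 4, 6, 2, 4, 1 and 8 peaks, the most of them in iPSC, and its start lies within 2 kb of an end of Mrpl52. Mmp2, the gelatinase A gene, was covered at days 0 to 8 and in iPSC, and Timp3 in all 8 lists. In this group Timp2, with 8 MEF-only and 0 iPSC-only regions, and Mmp14, with 1 and 4, stood furthest apart.

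The regions around the genes were then sorted by the end points. A region was the union of overlapping peaks over the 8 lists, and was called MEF-only when the fibroblast list held it and the iPSC list did not, iPSC-only in the reverse case, shared when both held it and intermediate-only when neither did. Of 165616 regions, 593 lay within 20 kb of a matrix gene. Among them 181 were MEF-only (30.5%; 18.9% of the 114837 regions near any protein-coding gene), 66 iPSC-only (11.1%; 19.6%), 60 shared (10.1%; 13.3%) and 286 intermediate-only (48.2%; 48.2%). Of the regions specific to 1 end point, 73.3% (67.3 to 78.7) were MEF-only near the matrix genes and 49.1% (48.6 to 49.5) near any gene. These intervals cover counting error only and take regions as independent, although many lie at the same gene, with 13 MEF-only regions at Fbn1 alone. After thinning 135 MEF-only and 45 iPSC-only regions were left near the matrix genes, a share of 75.0%.

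By gene, 31 of 44 had more MEF-only than iPSC-only regions (70.5%; 27.7% of all genes), 7 had more iPSC-only (15.9%; 35.2%) and 6 had equal numbers. The matrix genes are long, with a median span of 51.7 kb beside 17.2 kb for all genes, so the counts were also set per length. Per 100 kb of window they had 3.97 MEF-only regions beside 1.53 for all genes, and 1.46 iPSC-only regions beside 1.69. Of these classes the excess per length thus lay in MEF-only regions, and the density of iPSC-only regions was a little under that of all genes. Shared and intermediate-only regions were not set per length. At least 1 MEF-only region was found for 42 of the 44 (55.3% of all genes) and at least 1 iPSC-only region for 30 (61.1% of all genes).

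**Figure D3:**
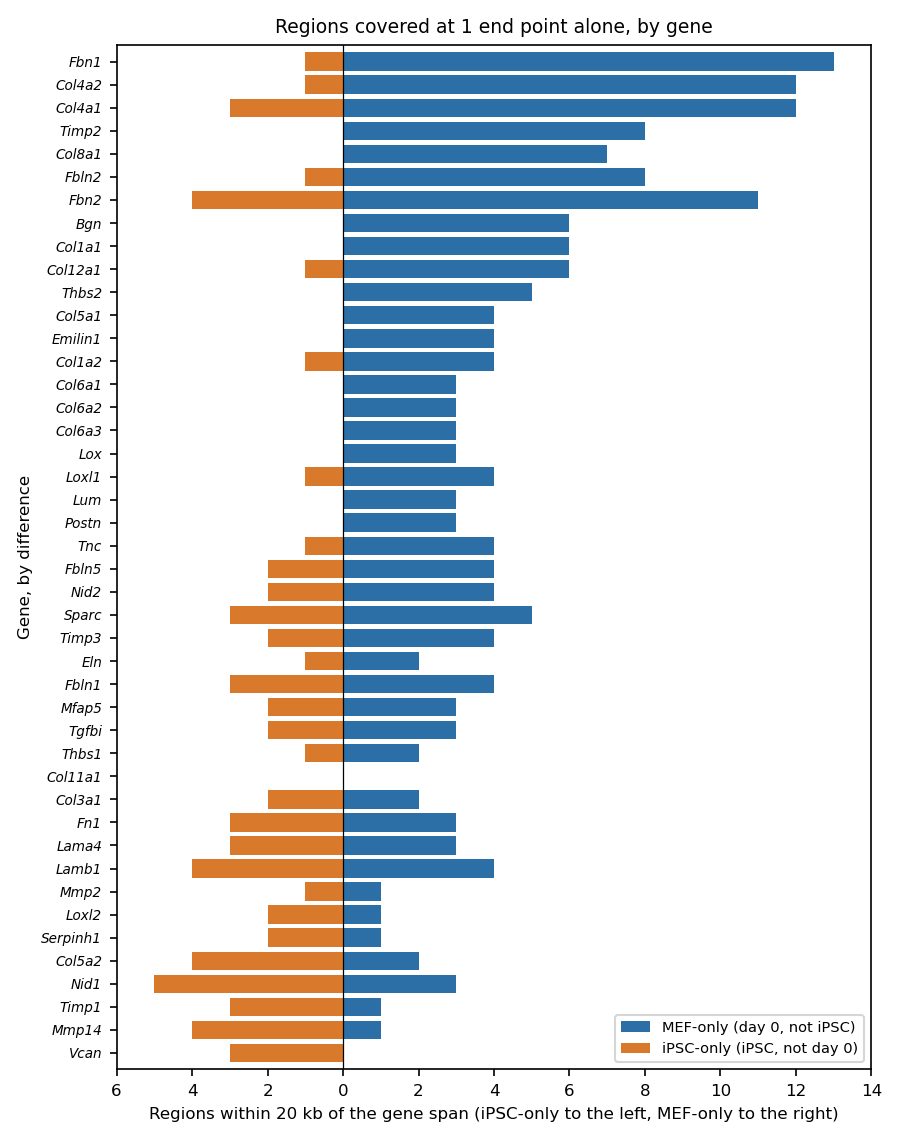
Number of MEF-only regions (to the right) and iPSC-only regions (to the left) within 20 kb of each of the 44 matrix genes (rows), ordered by their difference. Fbn1 is at the top with 13 against 1 and Vcan at the bottom with 0 against 3.

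The largest excess of MEF-only over iPSC-only regions was at Fbn1 (13 against 1), Col4a2 (12 against 1), Col4a1 (12 against 3), Timp2 (8 against 0), Col8a1 (7 against 0), Fbln2 (8 against 1), Fbn2 (11 against 4), and Col1a1 and Bgn (6 against 0 each). Col4a1 and Col4a2 share 9 regions, 3 of them MEF-only, since their windows overlap. Col3a1 and Col5a2 likewise share 3, 1 of them MEF-only and the others iPSC-only. The totals by role count such a region once for each gene. The excess of iPSC-only regions was small where it occurred: Vcan (0 against 3), Mmp14 (1 against 4), Col5a2 (2 against 4), Nid1 (3 against 5), Timp1 (1 against 3), Loxl2 (1 against 2) and Serpinh1 (1 against 2). By role, all 8 elastic fibre genes (49 against 14 regions) and all 5 other collagens (22 against 1) had more MEF-only regions. So had 6 of 7 adhesive and matricellular genes (25 against 10), with Fn1 equal, 3 of 6 fibrillar collagens (18 against 7) and 3 of 6 basement membrane genes (38 against 18). Proteoglycan genes split 2 to 1 (9 against 3 regions) and cross-linking and folding genes 2 to 2 (9 against 5). Protease and inhibitor genes split 2 to 2 with Mmp2 equal (15 against 10).

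Intermediate-only regions were most frequent at the same long genes, with 22 at Fbn1, 18 at Col4a2 and 15 at Fbn2. Of the 286 near matrix genes, 81 were covered at day 2 alone (28.3%; 25.1% near any gene). A group of 68 was covered at 2 or more of days 2 to 6 and at none of days 8 to 12 (23.8%; 18.8%). The late counterpart, covered at 2 or more of days 8 to 12 and at none of days 2 to 6, held 25 regions (8.74%; 9.29%).

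**Figure D4:**
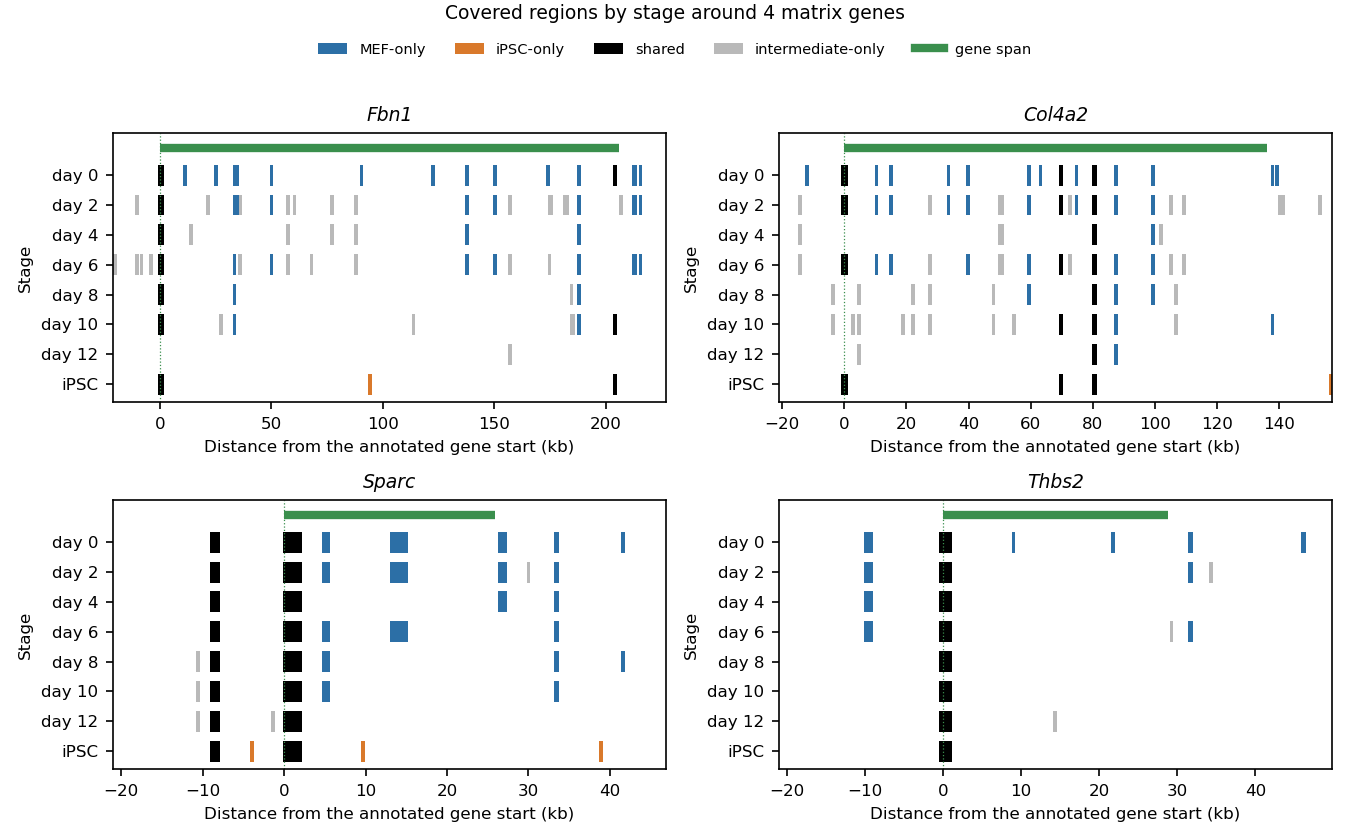
Regions covered in each of the 8 lists (rows) around Fbn1, Col4a2, Sparc and Thbs2, by distance from the annotated start in kb (x axis), with the colour giving the end-point class and the green bar the gene span. A bar is drawn over the whole merged region. At Sparc the black bar at the start thus holds peaks on the start at days 0 to 6. At days 8 and 10 and in iPSC it holds peaks 1.67 or 1.63 kb into the gene. The same region is covered at day 12 too, by a peak outside the 1 kb window of the start. At Thbs2 the region at the start is covered in all 8 rows.

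Position was read against the ends and spans of all protein-coding genes, neighbours of the matrix genes included. MEF-only regions near the matrix genes lay within 1 kb of a gene end in 18 of 181 cases (9.94%; 8.76% near any gene), inside a gene in 109 (60.2%; 70.4%) and between genes in 54 (29.8%; 20.8%). Of the 66 iPSC-only regions 3 lay within 1 kb of an end (4.55%, exact 95% interval 0.947 to 12.7; 12.6% near any gene). At the matrix genes' own ends there were 16 MEF-only and 2 iPSC-only regions. The best-scored MEF-only regions that were not covered in every list stood at Loxl1 (chromosome 9, 58299064 to 58300158), 9248 bp from Fbln2 (chromosome 6, 91201859 to 91203212) and at Fbln5 (chromosome 12, 101797928 to 101799241). They ranked 366, 894 and 969 among the 49632 peaks of day 0, with folds of 9.01, 6.68 and 8.81 in the authors' deposited table. The Loxl1 region was covered at days 0, 2 and 6, the Fbln5 region at days 0 to 6 and the Fbln2 region at days 0 to 10.

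The best-scored iPSC-only regions lay 19193 bp from Fn1 (chromosome 1, 71672473 to 71674199), 9846 bp from Fbln5 (chromosome 12, 101735643 to 101736719) and in Vcan (chromosome 13, 89661522 to 89662420). They ranked 660, 726 and 1985 among 49468 iPSC peaks, with folds of 9.44, 15.11 and 9.48 in the authors' deposited table. All 3 were covered in iPSC and in no other list. Among shared regions the best-scored that were not in every list were 6717 bp from Serpinh1, missing at day 10, at the end of Mfap5, held on days 0 and 6 plus iPSC, and 11185 bp from Loxl1, missing at days 10 and 12. Fbln5 and Loxl1 thus had strong peaks of more than 1 class within 20 kb.

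The time course of the MEF-only regions near matrix genes was close to that near any gene. Of the 181, day 2 covered 62.4% (64.4% near any gene), day 4 24.3% (28.5%), day 6 52.5% (52.2%), day 8 16.6% (15.2%), day 10 12.7% (14.4%) and day 12 2.21% (4.07%). Each share for any gene lay inside the exact 95% interval of the matrix share, for example 44.9 to 59.9% at day 6 and 11.5 to 22.8% at day 8. After thinning the matrix shares were 51.9%, 21.5%, 38.1%, 16.6%, 12.7% and 2.21%. The last list that covered a region was day 6 for 68 of them (37.6%; 36.2% near any gene) and day 0 for 50 (27.6%; 28.4%).

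Shared regions were the class in which the matrix genes and the rest stood furthest apart in the late lists. Of the 60 shared regions, 68.3% (55.0 to 79.7) were covered at day 8 beside 84.5% near any gene, 65.0% (51.6 to 76.9) at day 10 beside 85.8%, and 43.3% (30.6 to 56.8) at day 12 beside 64.1%. The matrix share was also the lower one in the earlier intermediate lists. It was 88.3% (77.4 to 95.2) beside 95.7% at day 2, 73.3% (60.3 to 83.9) beside 82.0% at day 4 and 78.3% (65.8 to 87.9) beside 88.8% at day 6. After thinning the matrix share was 86.7% beside 89.3% at day 0 and 78.3% beside 89.4% at day 2. In iPSC it was then 76.7% (64.0 to 86.6) beside 89.9%. At matched depth the gap was thus also present in iPSC and not limited to days 8 to 12. Of these 60 regions 39 lay within 1 kb of an end of any gene (65.0% beside 64.6% of the shared regions near any gene), 31 of them at a matrix gene's own end. Of the 66 iPSC-only regions, 48 were covered in iPSC alone (72.7%; 64.6% near any gene), and 9.09%, 13.6% and 4.55% were covered at days 8, 10 and 12 (16.6%, 19.4% and 10.2%).

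**Figure D5:**
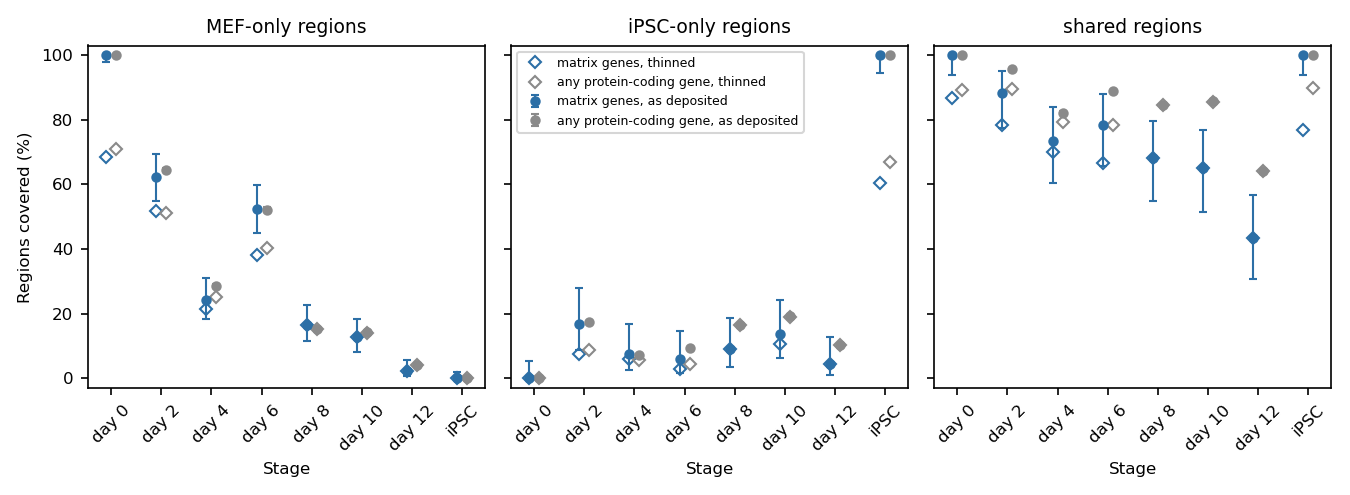
Share of MEF-only, iPSC-only and shared regions covered at each stage (y axis, percent), for regions within 20 kb of the 44 matrix genes (blue, with exact 95% intervals that cover counting error only) and of any protein-coding gene (grey), as deposited (filled circles) and thinned to the background pileup of day 8 (open diamonds). The MEF-only series lie close to each other, with 52.5% and 52.2% at day 6, while the shared series part at days 8 to 12, with 68.3% and 84.5% at day 8. After thinning the shared series also part in iPSC, with 76.7% and 89.9%.

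Counted as peaks, the windows of the 44 genes held 249 peaks in fibroblasts and 131 in iPSC, and 348, 160, 256, 142, 136 and 63 in the 6 lists between. Per 100 kb the median matrix gene had 5.49 peaks beside 3.01 for the median of all genes in fibroblasts, then 7.68 beside 4.6 (day 2), 3.37 beside 2.32 (day 4) and 5.31 beside 3.37 (day 6). From day 8 the order of the medians was the reverse, with 2.49 beside 2.66 (day 8), 1.85 beside 3.01 (day 10), 1.09 beside 2 (day 12) and 2.67 beside 3.31 (iPSC). The means did not all follow: over the summed windows there were 3.05 beside 2.76 peaks per 100 kb at day 8 and 2.92 beside 2.99 at day 10, then 1.35 beside 2.01 at day 12 and 2.81 beside 3.2 in iPSC. No matrix gene was without a peak within 20 kb at days 0 to 6, where 19.2% to 24.3% of all genes were. On day 8 there were 2 without one (4.55%; 22.4% of all genes), on day 10 there were 6 (13.6%; 22.3%), on day 12 there were 15 (34.1%; 26.5%) and in iPSC 6 (13.6%; 20%). Day 12 was thus the only list in which matrix genes lacked a peak more often than all genes. These shares were not adjusted for the longer spans of the matrix genes (median 51.7 kb beside 17.2 kb).

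The other 64 matrix genes did not show the low shares of the 44 on days 8 and 10. Their ends were covered in 50, 57, 42, 45, 40, 37, 27 and 46 cases from day 0 to iPSC. That was 78.1% in fibroblasts, 62.5% on day 8, 57.8% on day 10 and 42.2% on day 12, beside 55%, 55.2%, 56.4% and 44.3% of all genes. As deposited, their share thus stayed above that of all genes on days 8 and 10, where the 44 stood below it. The exact 95% intervals of both sets overlap there, however (49.5 to 74.3 and 34.6 to 65.4 on day 8). With lists cut to equal length, the share of the 64 was 54.7% beside 52.7% of all genes on day 8. On day 10 it was then the lower one, 48.4% beside 52.8%, with the 44 at 34.1%. By region class, 40 of 64 (62.5%) had more MEF-only regions and 12 (18.8%) more iPSC-only regions. The largest MEF-only excess was at Aspn and Itga11 (6 against 0 each), a small proteoglycan and a collagen receptor, followed by Col14a1 (7 against 2), Itgb5 (8 against 3), Col15a1 (6 against 1) and Col4a6 (5 against 0). The largest iPSC-only excess was at Spon1, a secreted adhesion protein gene, with 1 against 9, and at Mmp9, gelatinase B, with 0 against 4.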

How the data were processed

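ATAC-seq peak lists of 8 stages were used, 1 list for the 2 samples of a stage. How the samples were combined and whether the Tn5 offset was corrected are not stated in any source used. The submitters' processing notes name build mm10 and the tools MACS2 2.1.2, Bowtie2 2.2.5, fastp 0.20.1, deepTools 3.4.3 and SAMtools, with no settings. The lists deposited by the authors give each peak a score, a fold at the summit (a ratio), a −log10 p-value and a −log10 q-value, with a highest q-value of 0.05. Summit pileups and backgrounds were recovered from fold and p, with an error of at most 0.001 in −log10 p for 99.998% of peaks or more in each list; on simulated peaks at least 99.993% were recovered. Peaks on unplaced sequences, 36 to 57 a list, were not used. Overlaps of at least 1 bp were counted against RefSeq genes of GRCm38.p6, the assembly behind mm10, with spans but no exons. Intervals are exact Clopper-Pearson 95% intervals, and pileups from PCR-amplified reads are not independent molecules. The intervals of region shares take regions as independent, although several can lie at 1 gene.

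The members and lists were chosen with earlier results of these data known. Genes given list by list are those with ends covered in 3 or fewer lists, covered at 1 end point only, or with the largest class excess or most intermediate-only regions, and Col1a1, Col1a2, Col3a1 and Fn1; further genes were named after their values were seen. Alternatives were a score filter that kept 50% of each list, lists of equal length, thinning, other windows and overlaps, and, chosen after seeing the data, the union without day 2 or day 12. Python 3.11.15, numpy 2.4.6, pandas 2.3.3 and scipy 1.17.1 were used.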

Additional observations from a re-analysis of the deposited data

How the results depend on the processing

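With 1 list per stage, a share counted as moved when it left its exact 95% interval, and a count when it changed by over 1.5 times. The results compared were the covered ends, peaks, region classes and class shares by stage. Among the regions of 1 end point, the share that was MEF-only near the matrix genes stayed between 73.1% and 75.6% in all alternatives run. The rule on 50% overlap changed nothing by construction. Leaving out day 2 or day 12 could act only through the merging of regions, since these classes rest on the day 0 and iPSC lists. These 3 alternatives therefore say little about how stable the share is. No paired analysis was possible because the lists are per stage and not per sample, and for the same reason no replicate could be left out.

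With the better-scored 50% of each list, an end was covered for 22, 28, 18, 21, 12, 9, 8 and 17 genes from day 0 to iPSC. Day 2 and not day 0 thus had the most covered ends in this setting. No share over all genes is given for it. Peaks within 20 kb numbered 118, 180, 80, 118, 59, 55, 31 and 56 from day 0 to iPSC. The classes held 90 MEF-only, 29 iPSC-only, 26 shared and 141 intermediate-only regions. MEF-only regions were covered in 40.3%, 13.8%, 28.2%, 6.08%, 2.21% and 0.552% of cases at days 2 to 12, and iPSC-only regions in 6.06%, 1.52% and 0% at days 2, 4 and 6.

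With lists cut to equal length, an end was covered for 19 genes at day 2. Peaks numbered 155, 125, 129 and 90 on days 0, 2, 6 and 10, and 76 in iPSC. The classes held 114, 39, 35 and 159 regions in the order above. MEF-only regions were covered in 27.6%, 31.5% and 6.63% at days 2, 6 and 10, and iPSC-only regions in 4.55% and 1.52% at days 2 and 6.

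After thinning, there were 164 peaks at day 6, MEF-only regions were covered in 51.9% at day 2 and 38.1% at day 6, and iPSC-only regions in 7.58% at day 2. For the annotated start of 29 genes, the counts were 26, 14, 13 and 7 on days 0, 8, 10 and 12, and 19 in iPSC. Within the gene span alone there were 156, 219, 99, 152, 79, 76, 40 and 83 peaks by stage and 114 MEF-only, 41 iPSC-only and 177 intermediate-only regions. Within 50 kb there were 377, 536, 268, 409, 220, 213, 118 and 200 peaks and 95 shared regions. Without day 2 the classes held 182, 66, 60 and 216 regions, and without day 12 they held 181, 66, 60 and 269. Depth limits the late lists most: the lowest pileup of a called peak was 3 at day 12 and 8 at day 0, on backgrounds of 0.248 and 1.96.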
